A study of Mus musculus with 90 samples.

Results

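The genes described here encode subunits of the sodium pump and water channels. They are the β subunit genes Atp1b1, Atp1b2 and Atp1b3 and the aquaporin genes Aqp3, Aqp8, Aqp9 and Aqp11, taken by symbol from the count table, which held all 7 of them among 24422 genes. RNA was counted from the 5′ ends of transcripts in single oocytes at MII and in single embryos at 2c and at 8c, all from CD-1 mice, and the 3 stages and 2 maternal genotypes make 6 groups. Plag1 KO mice carry lacZ in place of the whole Plag1 open reading frame, and the females of both genotypes were superovulated at 1 to 3 months of age with serum gonadotropin and then hCG. Oocytes were picked uncultured from unmated WT or KO females 21 to 23 h after hCG. Embryos came from WT or KO females mated with WT studs and were cultured in KSOM medium to 45 to 47 h (2c) or 71 to 73 h (8c), so the matPlag1KO embryos lacked a maternal Plag1 allele and carried the paternal one. Cumulus cells had been removed with hyaluronidase in all groups. Each group had 14 to 16 libraries in 2 pools, here called plates A and B, that both held every stage and genotype. The labels give a pool and a position code, read here as a well whose letter is the row. Picking took place on 3 occasions, which the labels do not name. The labels do not name the donor females, so p-values measure the spread between single oocytes or embryos, some of which may share a mother.

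The sodium pump exchanges sodium for potassium across the plasma membrane. Its catalytic α subunit needs a β subunit to fold and reach the membrane, and small FXYD proteins tune its activity. In the mouse embryo the pump drives sodium, and water after it, across the trophectoderm to fill the blastocyst cavity, a step that lies later than the stages sampled here. Aquaporins are membrane channels for water. Aqp3 and Aqp9 also pass glycerol and other small solutes, Aqp8 also passes ammonia, and Aqp11 is an unusual member that resides in the endoplasmic reticulum.

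Of the 90 libraries, 78 passed the filter on median expression (16 WT and 14 KO oocytes, 11 and 11 at 2c, 15 and 11 at 8c). The kept libraries held 92475 to 2502421 gene counts each. Plag1 was counted in 16 of 16 WT oocytes (326 counts) and in 3 of 14 KO oocytes (4 counts). In embryos the paternal Plag1 allele is present, so Plag1 does not check the maternal genotype there; it had 1 count in WT 2c embryos, 91 in matPlag1KO 2c embryos, 10 in WT 8c embryos and 6 in matPlag1KO 8c embryos. Of the stage markers, all 8 oocyte genes fell from MII to 2c in both genotypes, and 7 of 8 genes of the 8c list rose from 2c to 8c in both. Upp1 of the 8c list went the other way, with means of 62.2 CPM at 2c and 2.09 CPM at 8c in WT and of 50.6 and 4.61 CPM in matPlag1KO. Of 12 cumulus cell markers, 4 to 9 had any count in a group, Ptx3 had none in any group, and the summed level of the list ranged from 0 to 106 CPM (counts per 1000000 of the TMM-scaled gene total) per library. Amhr2 of that list had 0 counts in WT and 2 in KO oocytes. In WT and matPlag1KO embryos it had 83 and 86 counts at 2c and 154 and 66 at 8c. None of the cumulus or 2c markers was called between genotypes, and of the oocyte markers Bmp15 was higher in matPlag1KO at 2c (1.83, adjusted p = 0.011) and Zp1 lower at 8c (-2.36, adjusted p = 0.0238, log2 fold changes in edgeR). Of the 7 sodium pump and aquaporin genes, 6 reached 1 CPM in at least 5 kept libraries and were among the 16511 genes tested. The exception, Aqp8, had 0 counts in all 90 libraries. Over the kept libraries together 3 counts of 37319537 would be 0.0804 CPM, the upper limit that 0 counts allow (counting error only).

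**Figure D1:**
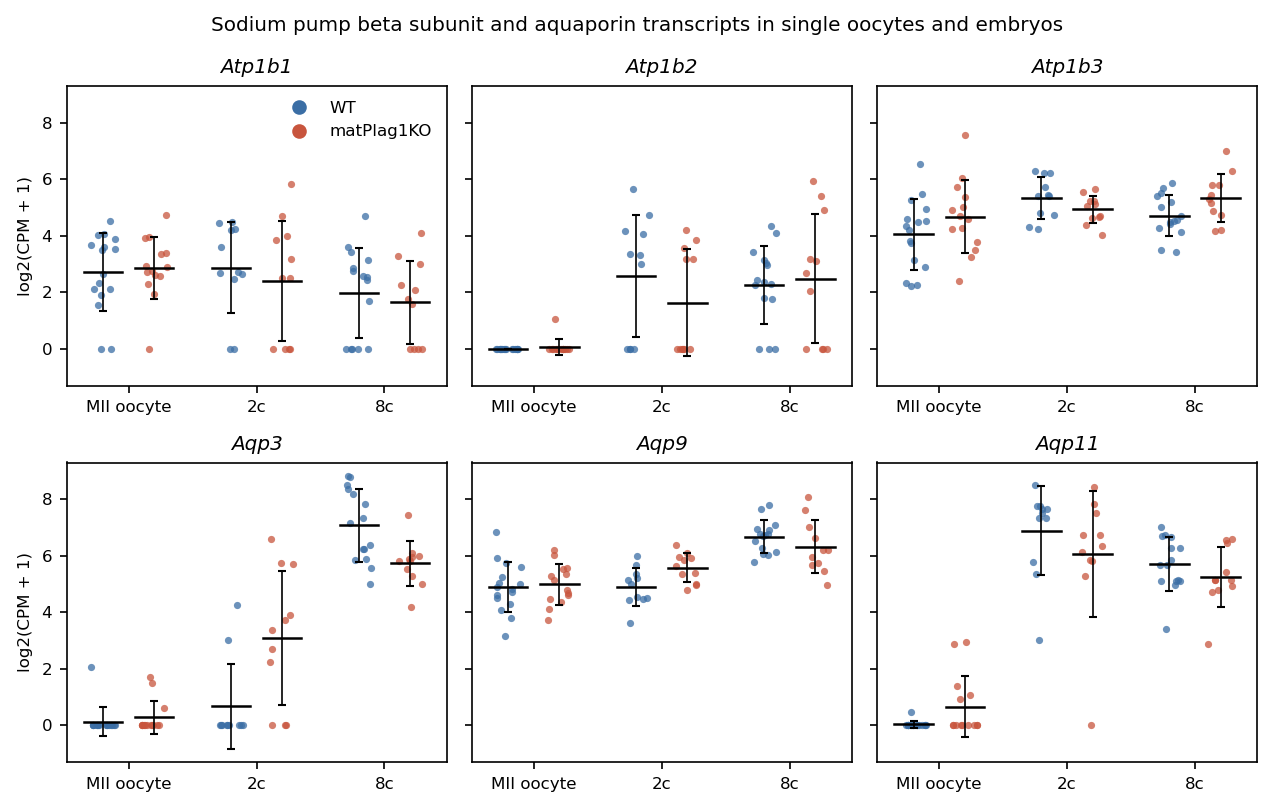
Level of each tested gene on the log2(CPM + 1) scale in every kept library, by stage on the x axis and genotype by colour. Horizontal bars mark group means and whiskers 1 SD. Aqp11 lies near 0 in oocytes and high at 2c, Aqp3 is high at 8c, Atp1b2 is at 0 in all 16 WT oocytes, and Atp1b1, Atp1b3 and Aqp9 are present at all stages.

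Aqp3, the aquaglyceroporin that passes water and glycerol, was the only member called between the genotypes, in opposite directions at 2c and 8c. It was almost absent from oocytes, with 1 count in 16 WT oocytes and 3 counts in 14 KO oocytes. At 2c it was found in 2 of 11 WT embryos (5 counts) and in 8 of 11 matPlag1KO embryos (53 counts). The lowest, median and highest levels were 0, 0 and 18.2 CPM in WT and 0, 9.24 and 95.7 CPM in matPlag1KO 2c embryos. At 8c all 26 embryos held Aqp3, at 31.0, 143 and 453 CPM in WT and at 17.2, 55.5 and 175 CPM in matPlag1KO. The level was thus higher in matPlag1KO at 2c and lower at 8c, and the genotypes overlapped at both stages.

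The fitted log2 fold change of Aqp3 between matPlag1KO and WT was 3.04 (SE 0.716, adjusted p = 0.00594) at 2c and -1.63 (SE 0.415, adjusted p = 0.0227) at 8c in edgeR's quasi-likelihood test. In oocytes it was 0.52 (SE 0.653, adjusted p = 0.927), on 4 counts. The genotype difference at 8c was lower than that at 2c by -4.67 (SE 0.82, adjusted p = 0.000515 for the difference itself). Pooled over libraries, the ratio of matPlag1KO to WT counts per gene count was 9.39 at 2c (95% interval 3.78 to 30.1) and 0.373 at 8c (0.325 to 0.426), where the intervals cover counting error only. Aqp3 was 1 of 6 tested members called at 2c, where 4.92% of all tested genes were called, and 1 of 6 at 8c, where 1.74% were. None of the 6 was called in oocytes (0.781% of all tested genes), where 2 had an unadjusted p under 0.05, namely Aqp11 and Atp1b3; DESeq2 also called none.

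The Aqp3 counts at 2c were uneven. Most lay in 3 of the 11 matPlag1KO embryos, which, in well D1 and well D2 of plate A and well D2 of plate B, held 12, 16 and 15 counts, or 81.1% of the 53. The other matPlag1KO embryos held 0 to 3 counts, and the WT embryos 0 to 4. Depth in the 3 libraries was 92475, 256529 and 232044 gene counts, and Aqp11 had 0, 17 and 23 counts there. Over the kept 2c libraries depth ran from 92475 to 256529 in matPlag1KO and from 116914 to 194287 in WT. In those 3 libraries the summed markers of the 8c list were at 95.7, 150 and 208 CPM, against 167 to 469 CPM in the WT 2c embryos, and the oocyte markers at 5333, 6557 and 8693 CPM, against 1631 to 6580 CPM. The sum of the 8c list had a median of 177 CPM in WT oocytes and 224 CPM in WT 2c embryos, so it separates these stages little. The part of these levels and of depth in the Aqp3 difference was not tested. In plate B all WT 2c embryos lay in row C and all matPlag1KO ones in row D, so row and genotype cannot be told apart there. Leaving out any 1 of the 22 libraries of the 2c comparison kept the call (log2 fold change 2.62 to 4.71, highest adjusted p 0.0249), the top value being that without the WT embryo in well C2 of plate B, which holds 4 of the 5 WT counts. Within a plate the direction was kept but the difference did not pass an exact two-sided permutation test of log2(CPM + 1), with p = 0.238 (adjusted over 6 such tests 0.238) in plate A, 4 WT against 5 matPlag1KO, and p = 0.0921 (adjusted 0.138) in plate B, 7 against 6.

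At 8c the WT level of Aqp3 was unlike in the 2 plate rows in which embryos lay. Both rows used for this stage, E and F, held both genotypes in both plates. What a row stands for is not given in the labels. Within the rows the genotypes lay in separate well columns in both plates, so column and genotype cannot be told apart at 8c. In row E the WT embryos had 31.0 to 162 CPM (mean 73.3 ± 39.7, SD, n = 8) and the matPlag1KO embryos 17.2 to 62.9 CPM (46.2 ± 18.7, n = 5). In row F the WT embryos had 143 to 453 CPM (324 ± 112, n = 7) and the matPlag1KO embryos 31.3 to 175 CPM (72.8 ± 51.9, n = 6). The genotypes were thus far apart in row F, with only the highest matPlag1KO embryo reaching into the WT range, and close together in row E. Within either plate the genotypes of row F did not overlap, with WT at 367 to 453 against at most 175 CPM in plate A and at 143 to 333 against at most 67.2 CPM in plate B. The exact two-sided permutation test gave p = 0.00233 (adjusted over the 6 tests 0.014) in row F and p = 0.155 (adjusted 0.186) in row E. The split by row was chosen after the data were seen, which the adjustment does not account for. In edgeR row E alone gave a log2 fold change of -0.59 (adjusted p = 0.492). A separate edgeR fit of the 8c libraries alone, with row and plate as terms, also called Aqp3, at -1.40 (adjusted p = 0.00225). Its genes and spread were not those of the main fit, so the 2 adjusted p-values cannot be set against each other. The plates alone gave p = 0.0606 in plate A and p = 0.0466 in plate B (exact permutation, both 0.121 when adjusted over the 6 tests). Over all rows the 8c call was lost with DESeq2 (-1.56, adjusted p = 0.0607), with spike-in totals as library sizes (-1.55, adjusted p = 0.124) and without the WT embryo in well F4 of plate A (-1.48, adjusted p = 0.0501).

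**Figure D2:**
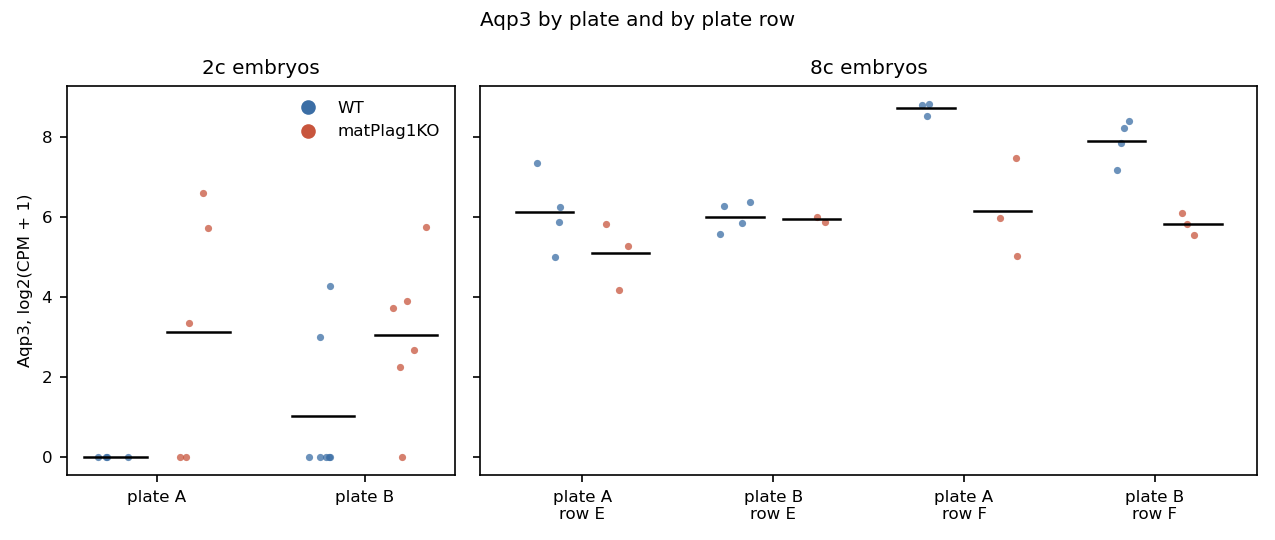
Aqp3 on the log2(CPM + 1) scale in each 2c library by plate (left) and in each 8c library by plate and plate row (right), with genotype by colour and a bar at the mean of each set. At 2c matPlag1KO embryos with 52.0 to 95.7 CPM stand above the others, and at 8c the WT embryos of row F lie at 143 CPM or more in both plates.

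Some other 8c genes also differed in level between these rows, which was not tested. The summed level of the 8 markers of the 8c list had a median of 873 CPM in row E and 1083 CPM in row F among WT embryos, and of 413 and 627 CPM among matPlag1KO embryos. The sums overlapped between the rows, at 390 to 1099 and 721 to 2542 CPM in WT and at 306 to 511 and 361 to 1731 CPM in matPlag1KO. Krt8, an epithelial keratin of that list, had medians of 41.7 and 85.8 CPM in WT and of 4.81 and 27.4 CPM in matPlag1KO embryos, again in row E and row F. Over all 8c embryos 3 of the 8 genes were called, all lower in matPlag1KO, against 1.74% of all tested genes, namely Krt8 (-1.91), Krt18 (-1.91) and Cdx2, a trophectoderm transcription factor (-1.999, all log2 fold changes with adjusted p of 0.0258, 0.0115 and 0.0471). Median depth was 513690 and 603021 gene counts in WT and 385915 and 408274 in matPlag1KO libraries of rows E and F. The part of these levels in the Aqp3 difference was not tested, and in whole embryos a smaller share of cells with a transcript cannot be told apart from less of it per cell.

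Across the stages Aqp3 rose at both steps in KO and from 2c to 8c in WT. Stages were compared on the spike-in scale, in which equal amounts of added ERCC RNA set the library size, and on which the median gene moved by -1.46 in WT and -1.42 in KO from MII to 2c, and by 0.53 and 0.30 from 2c to 8c (log2). Aqp3 rose by 6.93 (SE 0.709, adjusted p = 4.58e-14) from 2c to 8c in WT and by 2.33 (SE 0.553, adjusted p = 0.000282) in matPlag1KO. From MII to 2c it rose by 3.85 (SE 0.695, adjusted p = 1.63e-06) in KO, while the WT value was 1.67 (SE 0.832, adjusted p = 0.0701), and 0.31 (adjusted p = 0.765) without the WT 2c embryo that holds 4 counts. This WT step was called on the TMM scale (2.83, adjusted p = 0.00757) and in plate B alone (2.8, adjusted p = 0.0362), while plate A alone gave -1.01 (adjusted p = 0.51), so whether it counts as a rise depends on the scaling and the plate. Since oocytes held 1 and 3 counts, these values depend on the prior count of the fit, and the pooled ratios per spike-in count were 23.1 in KO (95% counting interval 7.49 to 116) and 7.73 in WT (0.865 to 365). The order of the mean levels, from high to low, was WT 8c, matPlag1KO 8c, matPlag1KO 2c, WT 2c, KO oocytes and WT oocytes, and the last 3 were at or near 0 in most libraries.

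Aqp3 lies on the minus strand of chromosome 4 (mm9, chr4:41039757-41045216). The sequence around its start site is shown because the genotype calls fall on this gene, and the windows of the other members can be set beside it. The window runs from 250 bases before to 50 bases after the annotated start, was read from the mm9 genome, and is printed 5′ to 3′ on the strand of the gene, with capitals for matches to the motifs searched.
Aqp3, chr4:41045167-41045466: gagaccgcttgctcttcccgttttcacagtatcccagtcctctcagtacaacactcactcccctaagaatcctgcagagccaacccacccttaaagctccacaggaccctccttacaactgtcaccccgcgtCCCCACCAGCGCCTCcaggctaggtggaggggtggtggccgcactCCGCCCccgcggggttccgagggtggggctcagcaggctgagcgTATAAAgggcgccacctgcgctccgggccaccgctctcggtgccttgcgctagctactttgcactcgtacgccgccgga
The capitals mark, in order, a match to the PLAG1 consensus on the other strand, a GC box (GGGCGG, here on the other strand) and a TATA box (TATAAA) at 29 to 24 bases before the start. A PLAG1 consensus match was present in 2 of the 7 members, Aqp3 and Atp1b1, and in 22.3% of 24323 windows of the same length over all genes. A GC box was present in 4 of 7 members and 44.4% of all windows, and a TATA box in 2 of 7 (Aqp3 and Atp1b2) and 13.1%. The TEAD motif GGAATG (13.4% of all windows) was found in Aqp8 only, and the AP-2 motif GCCNNNGGC (19.3%) in Atp1b3 only. Both strands were searched, and the PLAG1 and GC box matches can overlap, as they do in Atp1b1. A match is a run of letters, and no binding was measured.

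Aqp11, the aquaporin of the endoplasmic reticulum, appeared between the oocyte and the 2c stage and was the aquaporin with the most counts at 2c. It lies on the minus strand of chromosome 7 (mm9, chr7:104874889-104886757). Oocytes held almost none, with 1 count in 16 WT oocytes and 14 counts in 5 of 14 KO oocytes, where the highest level was 6.68 CPM. At 2c the lowest, median and highest levels were 7.07, 181 and 368 CPM in WT and 0, 81.2 and 346 CPM in matPlag1KO embryos. At 8c they were 9.55, 50.1 and 130 CPM in WT and 6.33, 34.5 and 96.2 CPM in matPlag1KO. The 2c embryos of either genotype thus lay mostly above all oocytes, and WT and matPlag1KO embryos overlapped over most of their range at 2c and 8c.

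On the spike-in scale Aqp11 rose from MII to 2c by 7.41 in WT (SE 0.666, adjusted p = 9.75e-17) and by 4.63 in KO (SE 0.568, adjusted p = 3.91e-11). The pooled ratio per spike-in count was 507 in WT, on 1 oocyte count (95% counting interval 90.3 to 20100), and 26.5 in KO (15.5 to 49). From 2c to 8c the change was -0.53 in WT (adjusted p = 0.35) and -0.52 in matPlag1KO (adjusted p = 0.396). Scaled to gene counts by TMM in place of spike-in RNA, the same step was -1.42 (adjusted p = 0.00122) and -1.31 (adjusted p = 0.00706), so its share among transcripts fell. Between genotypes the log2 fold change was 2.09 in oocytes (SE 0.693, adjusted p = 0.156), -0.50 at 2c (SE 0.415, adjusted p = 0.516, 95% interval -1.31 to 0.32) and -0.39 at 8c (SE 0.395, adjusted p = 0.708, interval -1.17 to 0.38). The difference between the 2c and the oocyte genotype difference was -2.58 (SE 0.797, adjusted p = 0.0494), 1 of 6 members called for that comparison against 3.31% of all tested genes. It rests on few oocyte counts: 7 of the 14 KO counts are in the oocyte in well B2 of plate A, and without it the value was -1.93 (adjusted p = 0.182). The call held in 18 of 52 fits that left out 1 library.

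The start of Aqp11 is shown as that of the gene with the steepest rise at the 2c stage.
Aqp11, chr7:104886708-104887007: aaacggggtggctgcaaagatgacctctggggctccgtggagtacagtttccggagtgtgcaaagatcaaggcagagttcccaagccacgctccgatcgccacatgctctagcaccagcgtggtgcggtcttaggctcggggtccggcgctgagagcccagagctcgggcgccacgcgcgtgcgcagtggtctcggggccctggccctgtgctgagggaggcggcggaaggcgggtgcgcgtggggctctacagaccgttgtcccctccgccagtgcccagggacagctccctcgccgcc
None of the 5 motifs searched was found in this window. Its GC content was 68% with 27 CpG, near that of the Aqp3 window (64%, 21 CpG) and above the median of all windows (55.7%, 12 CpG).

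Aqp9, an aquaglyceroporin that passes glycerol and other neutral solutes, was the aquaporin of the oocyte. It lies on the minus strand of chromosome 9 (mm9, chr9:70958466-71011096) and was counted in each of the 78 kept libraries. The lowest, median and highest levels were 8.01, 28.1 and 114 CPM in WT oocytes and 12.3, 30.3 and 73.6 CPM in KO oocytes. At 2c they were 11.2, 31.3 and 62.8 CPM in WT and 26.8, 48.9 and 81.8 CPM in matPlag1KO, and at 8c 53.6, 105 and 221 CPM in WT and 30.2, 72.4 and 271 CPM in matPlag1KO. Levels were alike in range in oocytes and 2c embryos and higher at 8c, and the genotypes overlapped at every stage.

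On the spike-in scale Aqp9 fell from MII to 2c by 1.5 in WT (SE 0.383, adjusted p = 0.000477) and by 1.17 in KO (SE 0.378, adjusted p = 0.00519), where the median gene moved by -1.46 and -1.42, and on the TMM scale the values were -0.08 (adjusted p = 0.889) and 0.54 (adjusted p = 0.17). From 2c to 8c it rose by 2.58 in WT (SE 0.399, adjusted p = 6.26e-08) and by 1.61 in matPlag1KO (SE 0.396, adjusted p = 0.000453), and the TMM values were 1.75 and 0.96, also called. Between genotypes it was 0.01 in oocytes (interval -0.56 to 0.57), 0.62 at 2c (interval -0.11 to 1.34, adjusted p = 0.336) and -0.16 at 8c (interval -0.76 to 0.44, adjusted p = 0.904). Its start site window is shown because, of the 3 expressed aquaporins, its base composition stands apart.
Aqp9, chr9:71011047-71011346: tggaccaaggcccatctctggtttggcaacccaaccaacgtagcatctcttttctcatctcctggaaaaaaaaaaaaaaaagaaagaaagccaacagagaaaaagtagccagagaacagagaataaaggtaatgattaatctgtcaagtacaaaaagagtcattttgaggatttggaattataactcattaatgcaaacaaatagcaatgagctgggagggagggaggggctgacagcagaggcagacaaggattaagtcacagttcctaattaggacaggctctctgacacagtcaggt
This window had 41.3% GC and 1 CpG, and held none of the 5 motifs.

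**Figure D3:**
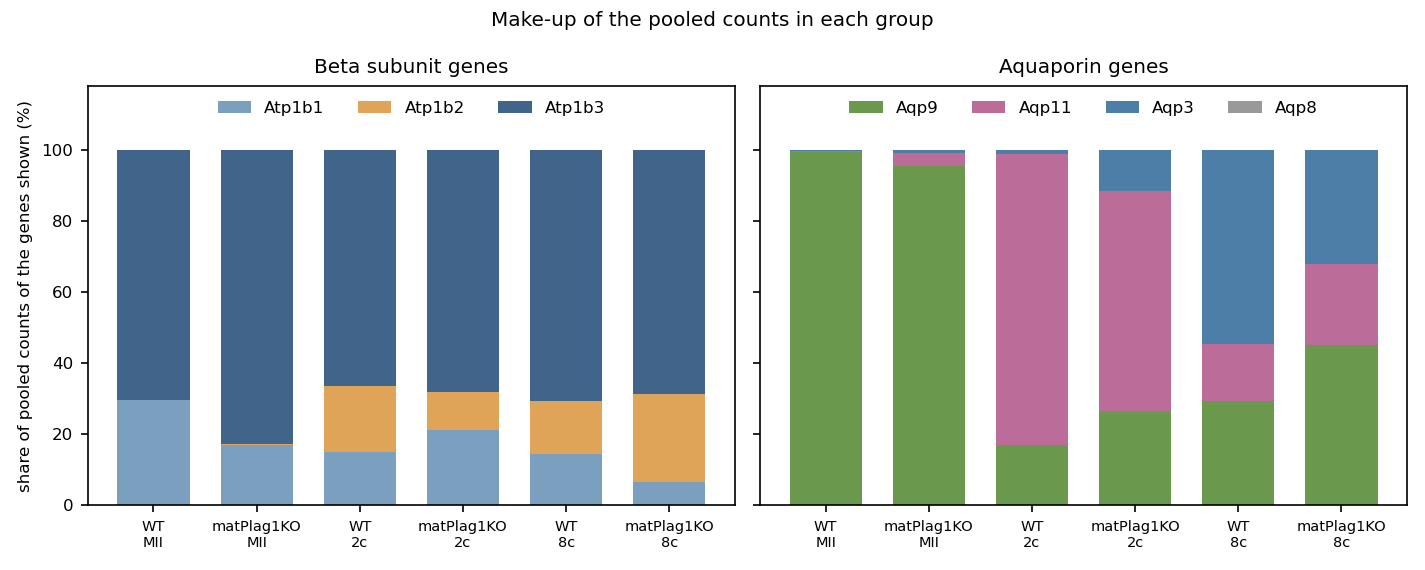
Share of the pooled counts of the 3 β subunit genes (left) and of the 4 aquaporin genes (right) that each gene holds in the 6 groups, in percent. Atp1b3 holds over 66% of the β subunit counts in every group, while the leading aquaporin is Aqp9 in oocytes, Aqp11 at 2c and Aqp3 in WT 8c embryos. Both plate rows are pooled at 8c, and in row E the WT mean level of Aqp9 was above that of Aqp3.

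Set side by side, the aquaporin with the largest share of the pooled counts changed from stage to stage. A smaller share need not be a lower level, since Aqp9 rose from 2c to 8c. Each count is a 5′ end, so counts do not grow with transcript length, although capture can differ between genes. Of the counts of these 4 aquaporins, Aqp9 held 99.4% in WT and 95.4% in KO oocytes (exact binomial 95% intervals 97.7 to 99.9% and 92.7 to 97.3%) and had the most counts of the 4 in all 30 oocytes. At 2c Aqp11 held 81.8% in WT (77.7 to 85.5%) and 61.8% in matPlag1KO embryos (57.2 to 66.3%), and led in 9 and 8 of 11 libraries. At 8c Aqp3 held 54.7% in WT (52.6 to 56.8%) and 32.2% in matPlag1KO embryos (29.0 to 35.6%), where Aqp9 held 45.2% (41.8 to 48.7%). In single 8c embryos Aqp3 led in 8 of 15 WT and in 3 of 11 matPlag1KO libraries, and Aqp9 in 5 and 7. In WT the mean levels of Aqp3 and Aqp9 were 324 and 113 CPM in row F, but 73.3 and 107 CPM in row E. In matPlag1KO embryos they were 72.8 and 132 CPM in row F and 46.2 and 56.7 CPM in row E. A lead of Aqp3 over Aqp9 in mean level was thus seen only in WT row F. With the 8 further aquaporins in the total, Aqp9 held 91.5% and 88.9% in oocytes, Aqp11 76.8% and 59.3% at 2c, and Aqp3 51.7% and 27.9% at 8c, in WT and KO. The intervals cover counting error only, and the spread over libraries was wider: the Aqp3 share at 8c ran from 16.5 to 78.8% in WT and from 9.28 to 60.5% in matPlag1KO.

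Of the β subunits, Atp1b3 held most of the pooled counts at all 3 stages. Atp1b3 (mm9, chr9:96233095-96264718, minus strand) was counted in all 78 libraries and held 66.4 to 82.9% of the β subunit counts of a group. In KO oocytes 184 of its 464 counts lay in the oocyte in well B7 of plate A. In single oocytes with at least 10 β subunit counts, Atp1b3 held 41.7 to 97.9% in WT and 25 to 100% in KO. Its lowest, median and highest levels were 3.66, 18.3 and 91.6 CPM in WT oocytes, 4.23, 24.0 and 190 CPM in KO oocytes, 17.9, 41.6 and 78.2 CPM at 2c in WT and 15.4, 32.3 and 49.1 CPM in matPlag1KO, and 9.86, 22.6 and 57.9 CPM at 8c in WT and 17.2, 38.3 and 126 CPM in matPlag1KO. All groups overlapped. On the spike-in scale it fell from MII to 2c by 2.21 in KO (SE 0.5, adjusted p = 9.61e-05), or by 1.53 without 1 KO oocyte, and the WT value was -0.73 (SE 0.47, adjusted p = 0.166); on the TMM scale these were -0.28 (adjusted p = 0.61) and 0.96 (adjusted p = 0.0376), so the WT value turned. From 2c to 8c it rose by 1.19 in matPlag1KO (SE 0.51, adjusted p = 0.0455, called in 11 of 22 fits without 1 library), against 0.27 in WT (adjusted p = 0.668). Between genotypes its log2 fold changes were 0.74 in oocytes (SE 0.354, adjusted p = 0.453), -0.50 at 2c (adjusted p = 0.539) and 0.70 at 8c (SE 0.392, adjusted p = 0.416).

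Atp1b2, the β subunit first described in glia, was not counted in any of the 16 WT oocytes and was present from the 2c stage. It lies on the minus strand of chromosome 11 (mm9, chr11:69413252-69419462). One KO oocyte held 2 counts. At 2c it was found in 7 of 11 WT embryos (0, 8.96 and 50.04 CPM as lowest, median and highest) and in 5 of 11 matPlag1KO embryos (0, 0 and 17.6 CPM), and at 8c in 12 of 15 WT (0, 4.19 and 19.4 CPM) and 7 of 11 matPlag1KO embryos (0, 5.37 and 60.1 CPM). Against a floor of 3 counts over all WT oocytes, the 25 counts in WT 2c embryos were at least 12.9-fold higher per spike-in count, and with the counting error of both groups the lower 95% limit of the ratio was 9.72. In KO the pooled ratio of 2c embryos to oocytes was 7.85 (95% counting interval 1.75 to 72.2, on 2 and 12 counts), and the fitted rise of 2.18 (adjusted p = 0.0228) was 1.68 (adjusted p = 0.0899) without the matPlag1KO 2c embryo in well D2 of plate B.

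From 2c to 8c Atp1b2 rose by 2.45 in matPlag1KO embryos (SE 0.796, adjusted p = 0.00808), against -0.16 in WT (SE 0.705, adjusted p = 0.887). The matPlag1KO value rests on plate B, where 8c embryos averaged 27.8 ± 24.5 CPM (n = 5), against 2.69 ± 3.27 CPM (n = 6) in plate A; the plates alone gave 3.37 (adjusted p = 0.00752) and 0.12 (adjusted p = 0.973). Without the 8c embryo in well E5 of plate B, which held 25 of 59 counts, it was 1.58 (adjusted p = 0.0835). Between genotypes no difference passed, with log2 fold changes of -1.20 at 2c (SE 0.764, adjusted p = 0.361) and 1.25 at 8c (SE 0.61, adjusted p = 0.343). The 8c value had an unadjusted p of 0.0434 in edgeR's quasi-likelihood test and a 95% interval of 0.055 to 2.45.

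Atp1b1, the most widely used β subunit in epithelia, was sparse throughout. It lies on the minus strand of chromosome 1 (mm9, chr1:166367230-166388486). Median levels were 7.87 CPM in WT and 6.03 CPM in KO oocytes, 5.63 and 4.62 CPM at 2c, and 4.78 and 2.40 CPM at 8c, with highest values of 16.0 to 55.8 CPM, and every group had libraries at 0. All groups overlapped. Its share of the pooled counts of the 3 β subunit genes was 29.5% in WT oocytes, 14.9% in WT 2c embryos and 14.5% in WT 8c embryos, and in KO 16.8%, 21.2% and 6.36% in the same order. The WT oocyte in well A5 of plate A held 41 of the 98 counts, and the median share per oocyte was 20.7% in WT and 23.1% in KO. On the spike-in scale it fell from MII to 2c by 1.52 in WT (SE 0.658, adjusted p = 0.0371) and by 1.5 in KO (SE 0.661, adjusted p = 0.0411), close to the median gene, and the TMM values were 0.24 and 0.40 with no call. These calls held in 19 of 27 and 14 of 25 fits that left out 1 library, and without the WT oocyte that weighed most the WT value was -0.92 (adjusted p = 0.201). Genotype differences were -0.03 in oocytes (interval -1.004 to 0.94), 0.13 at 2c (interval -1.22 to 1.48) and -0.46 at 8c (interval -1.71 to 0.78).

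**Figure D4:**
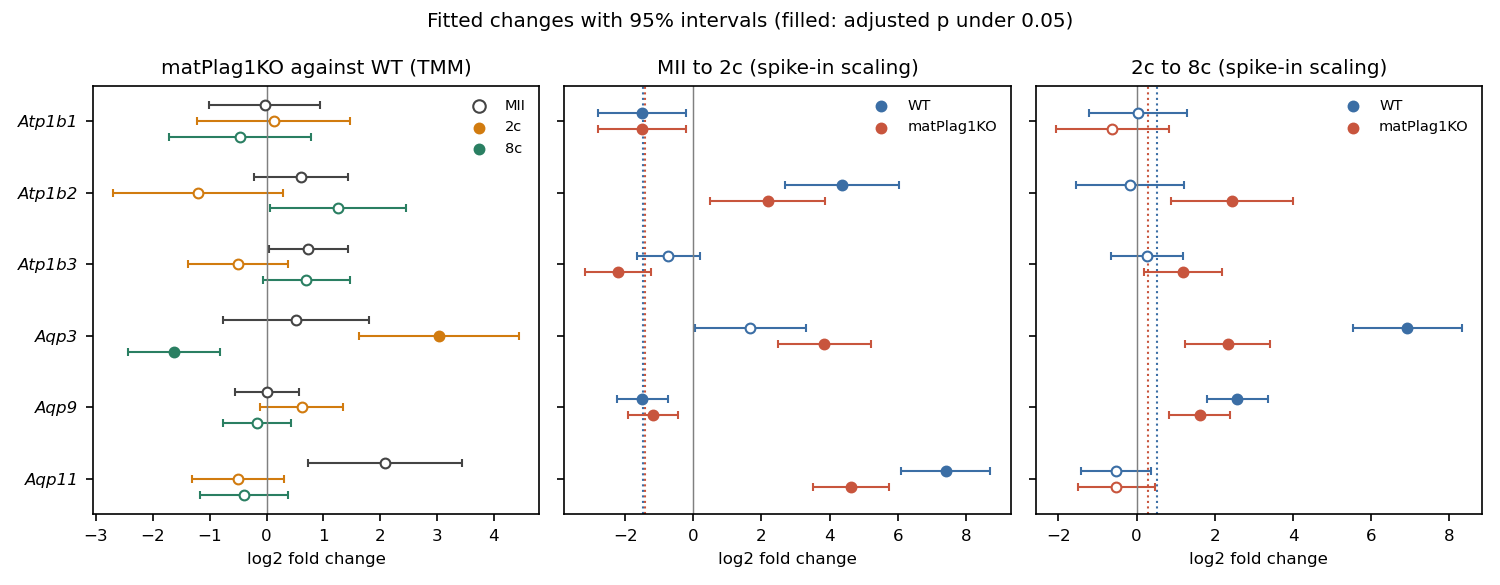
Log2 fold changes of the 6 tested members between genotypes at each stage (left, TMM scale) and between stages in each genotype (middle and right, spike-in scale), with 95% intervals. Filled points have an adjusted p under 0.05 and dotted lines mark the median of all tested genes. Aqp3 is the only filled gene on the left, at 3.04 for 2c and -1.63 for 8c.

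Counted over the members, 4 of 6 were called from MII to 2c in WT (Aqp11 and Atp1b2 up, Aqp9 and Atp1b1 down) where 65.4% of all tested genes were, and 6 of 6 in KO (3 up and 3 down) against 63.8%. From 2c to 8c 2 of 6 rose in WT (Aqp3 and Aqp9) and none fell. Of all 16511 tested genes 5269 rose and 2681 fell at that step (48.1% called). In matPlag1KO 4 of 6 rose (with Atp1b2 and Atp1b3) and none fell, where 4812 of all tested genes rose and 3213 fell (48.6% called). From MII to 8c 5 of 6 were called in each genotype, against 70.7% in WT and 69.3% in KO: Atp1b2, Aqp3 and Aqp11 rose and Atp1b1 fell in both, Aqp9 rose in WT (1.08, adjusted p = 0.00221), and Atp1b3 fell in KO (-1.02, adjusted p = 0.0491) but stood at 0.27 on the TMM scale. On that scale Atp1b1 was not called (-0.55 in WT and -0.98 in KO, adjusted p = 0.342 and 0.152), and Aqp9 was called in KO too (1.5, adjusted p = 1.64e-05). Without the WT oocyte in well A5 of plate A the Atp1b1 value in WT was -0.88 (adjusted p = 0.154). These shares lay above those of all genes in some steps and below them in others. For the change of the genotype difference between 2c and 8c, 1 of 6 was called (Aqp3) against 2.3%. The medians of the 6 log2 fold changes were 0.47 in WT and 0.50 in KO from MII to 2c, where the medians of all tested genes were -1.46 and -1.42, and 0.16 and 1.40 from 2c to 8c, against 0.53 and 0.30.

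The other genes of the pump and the channels gave no genotype call at any stage. Of 12 further pump genes 7 could be tested, of 8 further aquaporins 3, and of 12 genes for sodium and chloride entry 8. At an unadjusted p under 0.05 there were 0, 2 and 2 pump genes at MII, 2c and 8c, 0, 1 and 0 aquaporins, and 2, 0 and 0 entry genes; DESeq2 was not read for these lists. Fxyd4, a small regulatory subunit, had 1 count in WT 2c embryos and 276 counts in 15 of 15 WT 8c embryos, a called rise (adjusted p = 1.4e-10). In WT the 7 tested pump genes gave 0 up and 3 down from MII to 2c, where 65.4% of all genes were called, and 2 up and 1 down from 2c to 8c, where 48.1% were. With TMM factors these were 0 up and 2 down, and 2 up and 1 down.

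Aqp7, an aquaglyceroporin whose gene lies near Aqp3 on the same strand (mm9, chr4:40980107-40995169), rose by 2.37 from MII to 2c (adjusted p = 0.000871) and by 1.86 from 2c to 8c (adjusted p = 0.00445) in WT, although no further aquaporin was called up at the second step with TMM factors. Its medians were 11.3 CPM at 2c and 24.5 CPM at 8c in WT, and 4.62 and 32.2 CPM in matPlag1KO. Among the genes for ion entry Slc12a2, the sodium, potassium and chloride cotransporter, rose by 2.95 from MII to 2c in WT (adjusted p = 2.17e-07), and Slc9a3, a sodium and proton exchanger, fell by 5.15 (adjusted p = 6.02e-08). Slc4a2, an anion exchanger, had 168 counts in WT oocytes and 1 in WT 2c embryos, a called fall (adjusted p = 5.27e-06). In all, 2 of the 8 tested genes of that list rose and 5 fell at this step in WT, against 65.4% of all genes called and a median gene at -1.46, and 2 rose and none fell from 2c to 8c, against 48.1%. With TMM factors 2 rose and 4 fell, and then 0 rose and 3 fell, so the direction of the second step depends on the scaling. Of 10 tight junction genes, which seal the epithelium across which the pump works, 8 rose and none fell from 2c to 8c in WT (6 and none with TMM factors). Of all 16511 tested genes 5269 rose and 2681 fell at that step (48.1% called). Among the rising tight junction genes were Cldn4 (7.68, adjusted p = 3.98e-15), F11r (3.74, adjusted p = 2.96e-10) and Cldn7, which went from 3 to 1071 counts (adjusted p = 6.07e-16). No tight junction gene was called between genotypes at any stage (1, 1 and 2 at an unadjusted p under 0.05). Tjp3, a junction scaffold protein, was called for the change of the genotype difference from MII to 2c (3.17, adjusted p = 0.0226), on oocyte counts of 6 in 1 of 16 WT libraries and 0 in KO. Over the lists together, the tight junction genes had a median log2 fold change of 2.29 from 2c to 8c in WT and the other pump genes of 0.00, against 0.53 over all tested genes.

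The genes whose levels across the 78 libraries were most like those of a member, by Pearson's r of log2(CPM + 1) among 10840 genes whose mean reached 10 CPM in some group, were as follows. For Aqp3 they were Alg5 (r = 0.919), Plekhf1 (0.915) and Psmg2 (0.902). For Aqp11 they were Gabpa (0.935), Zfp599 (0.914) and Slfn4 (0.909). Aqp9 was less closely matched, by D630045M09Rik (0.731), Gm12338 (0.721) and Slc17a8 (0.714). Of the β subunits, Atp1b3 and Atp1b1 had lower values, with the highest r at 0.56 for Atp1b3 (Pdcd2l) and 0.532 for Atp1b1 (Itsn1). These values describe libraries that share stage, plate and depth, and low counts lower r.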

How the data were processed

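Single MII oocytes, 2c and 8c embryos were sequenced from transcript 5′ ends with molecular identifiers and ERCC RNA. The authors mapped the reads to mm9 with TopHat, counted them per UCSC gene with HOMER and deposited one table of raw counts, not normalized, that covers 90 libraries, 24422 genes and 92 ERCC spike-ins. The members and gene lists were chosen with earlier results of these data known.

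Libraries with a median CPM under 1 were left out (12 of 90), and genes had to reach 1 CPM in at least 5 libraries. All 6 groups were fitted in edgeR 4.0.16 (R 4.3.3) with a mean per group, and the quasi-likelihood test used Benjamini-Hochberg adjustment over 16511 genes with a threshold of 0.05. TMM factors scaled the genotype comparisons and CPM, and spike-in totals the stage comparisons. Intervals are 1.96 SE either side. A pseudocount of 1 CPM was used for log2 levels. Differences within plates and rows were tested with SciPy by exact two-sided permutation, and the rows were chosen after the data were seen. Steps were tested on simulated counts. Alternatives covered the scaling, the filters, DESeq2 1.42.0, plates, wells and each library left out; those on plate rows, and TMM factors for the other gene lists, were chosen after seeing the data. No 2 libraries of a group were copies (lowest chi-square per degree of freedom 3.54).

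Named genes were all members; of the other lists, genes called between genotypes and, for the WT steps, some of the 3 per list with the largest change among those called with at least 10 CPM in a group; and the 3 genes most like each member. Some genes that this rule names are not reported here. Promoter windows were read from mm9; 5 of the 6 members in RefSeq's table (GRCm38.p6) had the identical sequence there.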

Additional observations from a re-analysis of the deposited data

Results flagged for a closer look

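The genotype difference of Aqp3 changed between stages. The log2 fold change between matPlag1KO and WT was 3.04 at 2c and -1.63 at 8c, and the difference of -4.67 was called in edgeR's test of the difference itself (adjusted p = 0.000515) and in 48 of 48 fits without 1 library (-6.34 to -4.25). In edgeR the 2c value alone was not called in plate A (6.82, adjusted p = 0.362) or plate B (1.94, adjusted p = 0.171). The 8c value alone was not called in either plate, in row E, with DESeq2 or with spike-in totals.

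The genotype difference of Aqp11 also changed, from 2.09 in oocytes to -0.50 at 2c, a difference of -2.58 (adjusted p = 0.0494) on 15 oocyte counts in all. This call held in 18 of 52 fits without 1 library.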

How the results depend on the processing

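The counts of called members that moved by over 1.5 times were as follows. Between genotypes at 2c it was 1 in all libraries together and 0 in plate A and 0 in plate B alone. At 8c it was 1, and 0 under DESeq2, with spike-in totals as library sizes, in plate A, in plate B and in row E alone, and 0 to 1 without 1 library, the 0 being without the WT embryo in well F4 of plate A (Aqp3 -1.48, adjusted p = 0.0501). For the change of the genotype difference from MII to 2c it was 1, and 0 with DESeq2 size factors, with the plate as a term, with spike-in totals, and 0 to 1 without 1 library. From MII to 2c in KO it was 6, and 3 in plate B alone and with TMM factors. From 2c to 8c in matPlag1KO it was 4, and 0 in plate A alone and 2 to 4 without 1 library. From MII to 8c in KO it was 5, and 3 in plate B alone. With TMM factors the smaller moves were from 2 to 3 (2c to 8c in WT), from 4 to 3 (in KO), and from 5 to 4 in both genotypes from MII to 8c. With the well as a replicate block in oocytes, 0 members were called, as without it; the lowest correlation of 14 well pairs was -0.0562, so wells were not taken to pair the libraries.

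From MII to 2c these log2 fold changes turned when TMM or DESeq2 size factors replaced spike-in totals, which moves the median gene from -1.46 to -0.03 in WT and from -1.42 to 0.14 in KO: Atp1b1 in WT (0.24 and 0.25) and KO (0.40 and 0.71), Aqp9 in KO (0.54 and 0.84), Atp1b3 in WT (0.96 and 1.05) and, with DESeq2 size factors, in KO (0.03). From MII to 8c Atp1b3 in KO turned to 0.27 and 0.48, and to 0.16 in plate B alone. Of 211 alternatives to the 30 called member values, besides leaving out a library, 160 kept direction and call, 41 lost the call and 10 reversed.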
